A study of Mus musculus with 3 samples.

Results

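The miR-29 family of microRNAs (miRNAs) was followed in small RNA from extracellular vesicles (EVs) of the neonatal mouse testis. Its members were taken by name from the deposited catalogues, as the entries for either arm of miR-29a, miR-29b and miR-29c (mmu-miR-29a-3p, mmu-miR-29b-3p, mmu-miR-29c-3p and their 5p partners, printed without the species prefix from here on). Of 7 identifiers that these genes can give, 6 were counted, against 805 miRNA identifiers in all, which include miRNAs the authors predicted. They formed 10 of the 1347 identifier entries of the mature and hairpin types, and 9, 9 and 10 of these had counts in replicates 1, 2 and 3. A mature entry holds the reads that the authors assigned to the mature miRNA, and a hairpin entry holds further reads filed under the same identifier. The sources used here do not define the hairpin type beyond its name.

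The samples were EVs from the testes of C57/BL6 males at postnatal day 7 (PND7), each preparation pooled from 10 mice, and 3 such preparations were sequenced. The paper's statistics section gives another number of sets for small RNA sequencing, and the 3 libraries of the labels were used. All belong to a single group with no control group, so levels were described and members were compared within libraries. The titles carry the word treated, but no agent is named apart from the proteinase K, PMSF and RNase A used on the EVs before RNA extraction. EVs came from the supernatant of the whole digested testis, so fewer vesicles of a kind and less RNA per vesicle cannot be told apart. Mature miRNAs held between 870967 and 1005836 counts per library and hairpin entries between 493345 and 612122. No marker mRNA was measured. miR-202-5p, a miRNA known from the gonad, had 16196 to 28519 mature counts and ranked 12th. miR-122-5p, the main miRNA of liver, had at most 1 count. miRNAs known mainly from muscle were also counted, with miR-499-5p ranked 76th, miR-133a-3p 100th and miR-1a-3p 129th. The tissue source of the reads was not tested.

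A miRNA guides Argonaute proteins to messenger RNAs that pair with its seed, the short stretch behind its first base, and these messages are then repressed. The miR-29 family is known for repressing collagens and elastin, and also the de novo DNA methyltransferases Dnmt3a and Dnmt3b. In the testis, collagens belong to the basement membrane around the seminiferous tubules, and these methyltransferases act in the germ line. In most tissues the 3p strand is the guide and the 5p strand of the hairpin is degraded.

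The 3p sequences are shown because all values below turn on telling them apart. They were taken from RefSeq (GRCm38.p6), in which all 7 identifiers were found. Capitals mark the seed, bases 2 to 8.
miR-29a-3p: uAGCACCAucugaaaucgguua
miR-29b-3p: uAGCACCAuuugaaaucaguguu
miR-29c-3p: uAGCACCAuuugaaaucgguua
The seed was the same in all 3 members and in no other of the 1679 mature names of that table. Counted from 1 at the 5′ end, miR-29c-3p differs from miR-29a-3p by the single substitution C10U. From miR-29a-3p to miR-29b-3p there are 4 substitutions, C10U, G18A, U21G and A22U, and miR-29b-3p has 1 further base at its 3′ end. Reads of miR-29a-3p and miR-29c-3p are therefore separated by a single base, so their division is uncertain. The mismatches allowed in mapping are not given in the sources used here.
The last bases of miR-29b-3p are the hexamer AGUGUU, known from work in cultured cells as an element that sends miR-29b to the nucleus. It closes 2 of the 1679 mature names, the other being miR-92b-5p. That miRNA had no mature count in any library and 0, 14 and 0 hairpin counts in replicates 1, 2 and 3. The figure of 2 of 1679 describes the reference table on the mature strand only.

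The genes lie in a pair of clusters. Mir29a (chr6:31062660-31062747) and Mir29b-1 (chr6:31063023-31063093) are on the minus strand of GRCm38 with 275 bases between them. GENCODE places Mir29a outside other genes, and 2 bases of Mir29b-1 overlap an exon of the long non-coding RNA Gm27019. Mir29b-2 (chr1:195037040-195037120) and Mir29c (chr1:195037547-195037634) are on the plus strand with 426 bases between them. These hairpins lie within exons of the non-coding transcript A330023F24Rik and opposite an untranslated exon part of Cd46. Mature miR-29b-3p is encoded identically at 2 loci, 1 in each cluster, and its counts cannot be divided between them. The precursors of the chromosome 6 cluster are shown because miR-29a-3p and miR-29b-3p differed most in the type their reads were filed under. Capitals mark the annotated 5p and 3p arms.
Mir29a: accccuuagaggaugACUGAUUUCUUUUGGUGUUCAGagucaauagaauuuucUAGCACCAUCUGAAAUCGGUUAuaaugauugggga
Mir29b-1: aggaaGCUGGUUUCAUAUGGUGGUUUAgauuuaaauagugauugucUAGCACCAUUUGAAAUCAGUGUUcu
The 3p arm spans bases 54 to 75 of the 88 bases of Mir29a and bases 47 to 69 of the 71 bases of Mir29b-1.

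In the mature entries, miR-29a-3p and miR-29b-3p stood at nearly the same low level and miR-29c-3p lay below them. miR-29a-3p, which is made only from the chromosome 6 cluster, had 65, 69 and 104 counts in replicates 1, 2 and 3. As CPM, that is scaled to 1000000 mature counts in each library, this was 74.6, 68.6 and 108, a mean of 83.6 ± 21.0 (SD, n = 3). miR-29b-3p, the member encoded in both clusters, had 80, 63 and 94 counts, or 91.9, 62.6 and 97.3 CPM with a mean of 83.9 ± 18.6 (SD, n = 3). The values of these members overlapped, with miR-29b-3p higher in replicate 1 and miR-29a-3p higher in replicates 2 and 3. miR-29c-3p, from the chromosome 1 cluster, had 37, 20 and 44 counts, or 42.5, 19.9 and 45.5 CPM with a mean of 36.0 ± 14.0 (SD, n = 3). Its highest library was below the lowest library of either other member.

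The hairpin entries gave another order. miR-29a-3p had 540, 483 and 538 hairpin counts, which is 1095, 789 and 932 CPM of the hairpin counts, a mean of 938 ± 153 (SD, n = 3). miR-29c-3p followed with 108, 119 and 155 counts, or 219, 194 and 268 CPM with a mean of 227 ± 37.7 (SD, n = 3). miR-29b-3p was lowest, with 24, 12 and 35 counts, or 48.6, 19.6 and 60.6 CPM with a mean of 43.0 ± 21.1 (SD, n = 3). The hairpin values of the 3 members did not overlap in any pair.

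**Figure D1:**
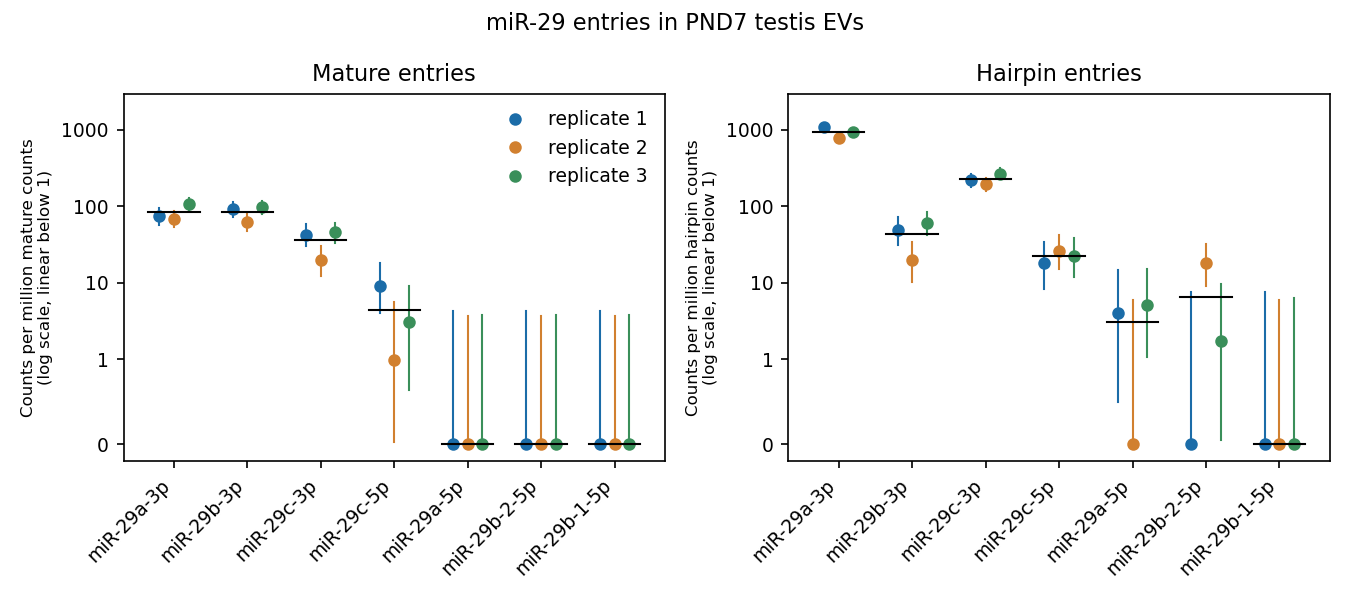
CPM of mature counts (left) and CPM of hairpin counts (right) of the 7 miR-29 identifiers, on a log scale that is linear below 1. Points are the 3 libraries, vertical lines their exact binomial 95% intervals and black bars the means. miR-29a-3p and miR-29b-3p overlap on the left at means of 83.6 and 83.9, and are far apart on the right at 938 and 43.0.

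Within libraries, the log2 ratio of miR-29a-3p to miR-29b-3p in mature counts was -0.30, 0.13 and 0.15, a mean of -0.0075 ± 0.25 (SD, n = 3). An exact permutation test that flips signs within libraries, two-sided, gave p = 1 for this ratio. The libraries thus placed this ratio on either side of 0, and equal levels are not shown by the test. miR-29a-3p exceeded miR-29c-3p in 3 of 3 libraries, by 1.28 ± 0.49 on the log2 scale (SD, n = 3), or 2.43-fold. The log2 ratio of miR-29c-3p to miR-29b-3p was -1.29 ± 0.32 (SD, n = 3), and below 0 in every library. For each of these last ratios the exact test gave p = 0.25, the smallest p that 3 libraries allow, and 0.375 after Benjamini-Hochberg adjustment over the 3 ratios. No ratio within these libraries can therefore pass a threshold of 0.05.
In hairpin counts, miR-29a-3p exceeded miR-29b-3p by 4.59 ± 0.70 on the log2 scale (SD, n = 3), or 24.1-fold. It exceeded miR-29c-3p by 2.05 ± 0.26, or 4.13-fold. miR-29c-3p exceeded miR-29b-3p by 2.54 ± 0.66, the opposite order to the mature entries. Each direction held in 3 of 3 libraries (exact sign-flip test, p = 0.25, and 0.25 after adjustment).
Of the mature counts of the 3 members, miR-29a-3p held 41.4% ± 5.04, miR-29b-3p 41.4% ± 2.56 and miR-29c-3p 17.2% ± 3.68 (SD, n = 3 each). Of their hairpin counts, miR-29a-3p held 77.6% ± 3.35, miR-29b-3p 3.44% ± 1.43 and miR-29c-3p 18.9% ± 2.64. The share of miR-29c-3p moved by less than its SD between the types, while that of miR-29a-3p was higher and that of miR-29b-3p lower in hairpin entries.

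The order depended on how each member's reads were divided between the types. Only 10.7%, 12.5% and 16.2% of the reads of miR-29a-3p were mature in replicates 1, 2 and 3, a mean of 13.1% ± 2.78 (SD, n = 3). For miR-29c-3p the mature share was 25.5%, 14.4% and 22.1%, a mean of 20.7% ± 5.70. For miR-29b-3p it was 76.9%, 84.0% and 72.9%, a mean of 77.9% ± 5.63. miR-29b-3p was counted mainly as mature and the other two mainly as hairpin, in every library. The exact binomial 95% interval of miR-29b-3p reached no lower than 64.3% and that of miR-29c-3p no higher than 33.4%. These intervals cover counting error only.
On the log2 scale the ratio of mature to hairpin counts was -2.74 ± 0.35 for miR-29a-3p, 1.85 ± 0.49 for miR-29b-3p and -1.98 ± 0.53 for miR-29c-3p (SD, n = 3 each). All 3 directions held in every library (exact sign-flip test, p = 0.25). The difference between miR-29b-3p and miR-29a-3p in this ratio was 4.60 ± 0.72 (SD, n = 3), a 24.2-fold difference, and that between miR-29b-3p and miR-29c-3p was 3.83 ± 0.98. miR-29c-3p lay above miR-29a-3p by 0.77 ± 0.66, with 0.23 in the library where they were closest. These differences were above 0 in 3 of 3 libraries (exact sign-flip test, p = 0.25). They follow from the mature and hairpin ratios between members given above and are not separate evidence.
Among the 292 miRNA identifiers with mature and hairpin counts in every library, the median mature share was 54.4%, and the middle of the distribution ran from 33.0% to 73.0% (quartiles). By the mean log2 ratio, 10.6% of these identifiers lay below miR-29a-3p, 16.8% below miR-29c-3p and 79.1% below miR-29b-3p. Members with the same seed thus lay below the lower and above the upper quartile of these identifiers.

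**Figure D2:**
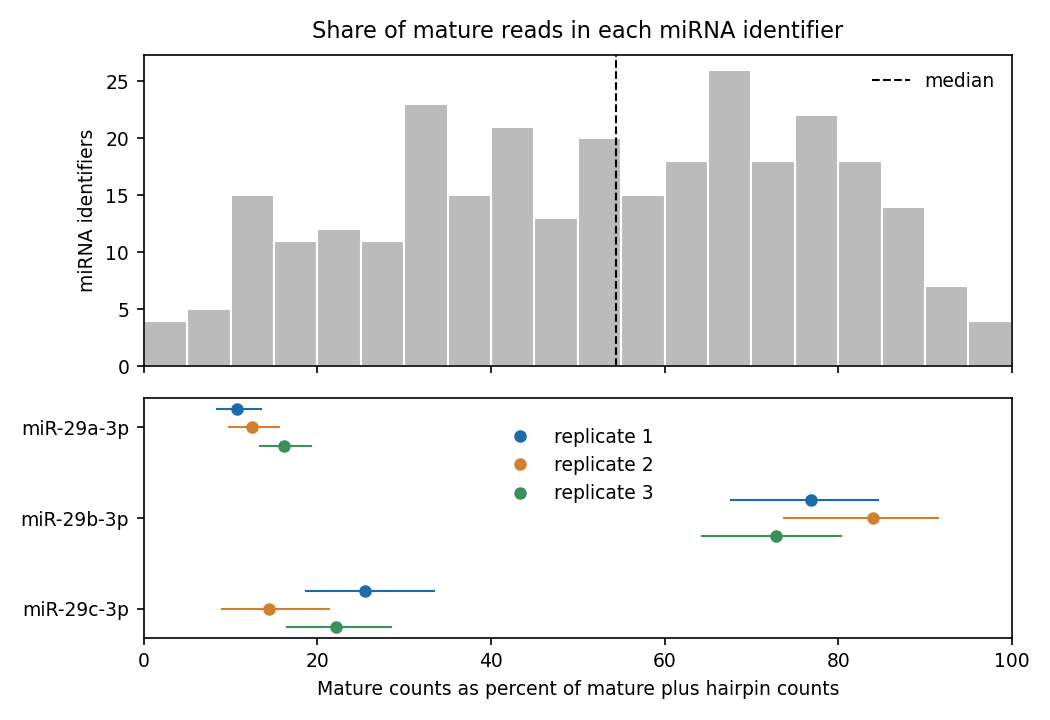
Mature counts as a percentage of mature plus hairpin counts. The upper panel counts the 292 identifiers with reads of both types in every library by their mean share, with the median of 54.4% dashed, and the lower panel gives the 3p members in each library with exact binomial 95% intervals. miR-29b-3p sits between 72.9% and 84.0%, and the other members at or below 25.5%.

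The 5p strands were rare. Mature miR-29a-5p, miR-29b-1-5p and miR-29b-2-5p had 0 counts in all libraries. For miR-29a, 0 of 65, 69 and 104 mature counts were on the 5p arm. A limit of 3 counts corresponds to a 5p share of 4.62%, 4.35% and 2.88%. The exact 95% interval of the 3p share reached down to 94.5%, 94.8% and 96.5%. For miR-29b, with 0 of 80, 63 and 94, the limit of 3 counts corresponds to 3.75%, 4.76% and 3.19%. Its exact 95% interval of the 3p share reached down to 95.5%, 94.3% and 96.2%. miR-29c-5p was the only 5p strand with mature counts, with 8, 1 and 3, and the 3p arm of miR-29c held 82.2%, 95.2% and 93.6% of its mature counts. The exact 95% interval in the library with the fewest counts, replicate 2, ran from 76.2% to 99.9%.
Hairpin entries held a few more 5p reads. miR-29c-5p had 9, 16 and 13 hairpin counts, so that the 3p arm held 90.9% ± 2.39 (SD, n = 3) of the hairpin counts of miR-29c. miR-29a-5p had 2, 0 and 3 against 540, 483 and 538 of the 3p strand. miR-29b-2-5p, the strand that marks the chromosome 1 copy of miR-29b, had 0, 11 and 1 counts, so that a single library held nearly all of them. In replicate 2 it nearly equalled the 12 hairpin counts of miR-29b-3p. miR-29b-1-5p, the strand that marks the chromosome 6 copy, was not counted in either type, which at a limit of 3 counts allows up to 3.44 CPM of mature and 6.08 CPM of hairpin counts in replicate 1, the shallowest library. The share of each locus in miR-29b-3p could not be read from these 5p counts at this depth.

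With all arms together, the family held 190, 153 and 245 mature counts. This was 0.0218%, 0.0152% and 0.0254% of the mature counts of the libraries, a mean of 0.0208% ± 0.00515 (SD, n = 3). Of the hairpin counts it held a larger part, with 683, 641 and 745 counts and 0.124% ± 0.0174 (SD, n = 3).
Among the 604 mature miRNAs counted in any library, miR-29b-3p ranked 190th, miR-29a-3p 191st and miR-29c-3p 283rd by mean CPM. Among the 743 hairpin entries, miR-29a-3p ranked 94th, miR-29c-3p 175th and miR-29b-3p 374th. The members were therefore of middling abundance as mature miRNAs, and miR-29a-3p was nearer the top as a hairpin entry.

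**Figure D3:**
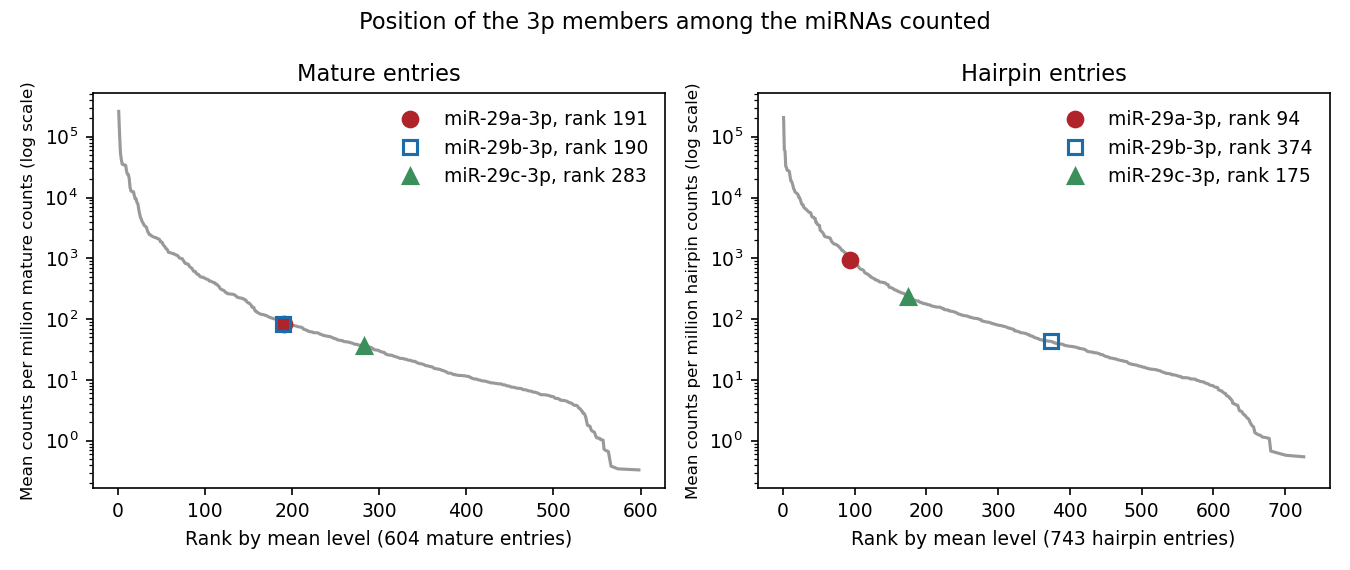
Mean CPM (log scale) of all 604 mature entries (left) and 743 hairpin entries (right) against their rank, as grey lines. Symbols mark the 3p members, which lie at ranks 190, 191 and 283 on the left and at ranks 94, 175 and 374 on the right.

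All 3 members were lowest in replicate 2, in mature as in hairpin entries. Replicate 2 also had the most mature counts, and the part of its composition in these values was not tested. The highest library exceeded the lowest 1.57-fold for mature miR-29a-3p, 1.55-fold for miR-29b-3p and 2.29-fold for miR-29c-3p, beside a median of 1.73-fold over those 272 mature entries that reached 10 counts in each library. Without replicate 2 the spread of miR-29c-3p was 1.07-fold. In hairpin entries the factors were 1.39, 3.09 and 1.38 for miR-29a-3p, miR-29b-3p and miR-29c-3p, beside a median of 1.80 over 324 entries. Without replicate 2, that of miR-29b-3p fell to 1.25. Counting alone would give mature miR-29a-3p an SD of 9.39 CPM, less than the 21.0 observed, and for miR-29c-3p it would give 6.20 against 14.0.

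The miRNAs nearest in level to mature miR-29b-3p, by the distance of log2(CPM + 1) over the 3 libraries, were miR-29a-3p at 0.35 and, outside the family, miR-668-3p at 0.44, miR-208a-3p at 0.48 and miR-880-3p at 0.49. miR-668-3p had 65, 69 and 76 mature counts, miR-208a-3p 92, 79 and 115, and miR-880-3p 71, 77 and 73. The distance to miR-29c-3p was 2.22. This is likeness of level over 3 libraries and nothing further.

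miR-29 was set beside the miR-148 family, taken here with its relative miR-152-3p, whose 3p strands are known to act on Dnmt1, and beside miR-30, a family of mainly 5p guides. The 3p arms held 98.0% ± 1.91 of the mature counts of miR-29, 98.9% ± 0.948 of miR-148 and 14.7% ± 2.70 of miR-30 (SD, n = 3 each). The difference to miR-148 was -0.93 ± 1.77 percentage points, from -2.55 to 0.97 over the libraries (exact sign-flip test, p = 0.5), and the difference to miR-30 was 83.3 ± 4.54 points. Within miR-30 the favoured arm varied by member. Mature miR-30e-3p had a mean of 984 CPM against 34.9 for miR-30e-5p. For miR-30a the arms were close, at 476 CPM for the 3p and 378 for the 5p strand. Its mature 3p counts were 399, 655 and 308 in replicates 1, 2 and 3, against 372, 396 and 303 on the 5p strand. In hairpin entries the means went the other way, with 1203 CPM for miR-30a-3p and 1427 for miR-30a-5p. miR-30b, miR-30c and miR-30d were mainly 5p.
Hairpin entries held 78.1% ± 2.74 of the mature and hairpin counts of miR-29, 31.3% ± 9.30 of miR-148 and 49.5% ± 2.28 of miR-30 (SD, n = 3 each). miR-29 exceeded miR-148 by 46.8 ± 12.0 points and miR-30 by 28.6 ± 2.28 points, in 3 of 3 libraries. These shares are sums over each family, and members went either way within all 3 families. miR-152-3p was mainly hairpin, with 62, 219 and 49 mature against 244, 309 and 551 hairpin counts, whereas miR-148a-3p had a mean mature share of 83.5%. In miR-30 the mean mature share was 85.1% for miR-30b-5p and 18.2% for miR-30e-5p, as it was 77.9% for miR-29b-3p and 13.1% for miR-29a-3p. As a share of all mature counts, miR-29 at 0.0208% was below miR-148 at 0.173% ± 0.0535 and below miR-30 at 1.05% ± 0.193 (SD, n = 3 each), again in every library. Both other families were chosen as abundant ones. The sums cover 6 counted identifiers for miR-29, 4 for miR-148 and 11 for miR-30. Of the 6 differences, those other than the 3p share against miR-148 gave p = 0.25 in the exact sign-flip test and 0.3 after Benjamini-Hochberg adjustment. The tests of abundance, and of the 3p share against miR-30, lend no support, because the choice of families set their direction. miR-148 was chosen also as a 3p family, so the small difference in 3p share against it lends none either. The most abundant mature member was miR-148a-3p in the miR-148 family, with 1199, 2018 and 1232 counts, and miR-30b-5p in the miR-30 family, with 3068, 4759 and 3043.

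**Figure D4:**
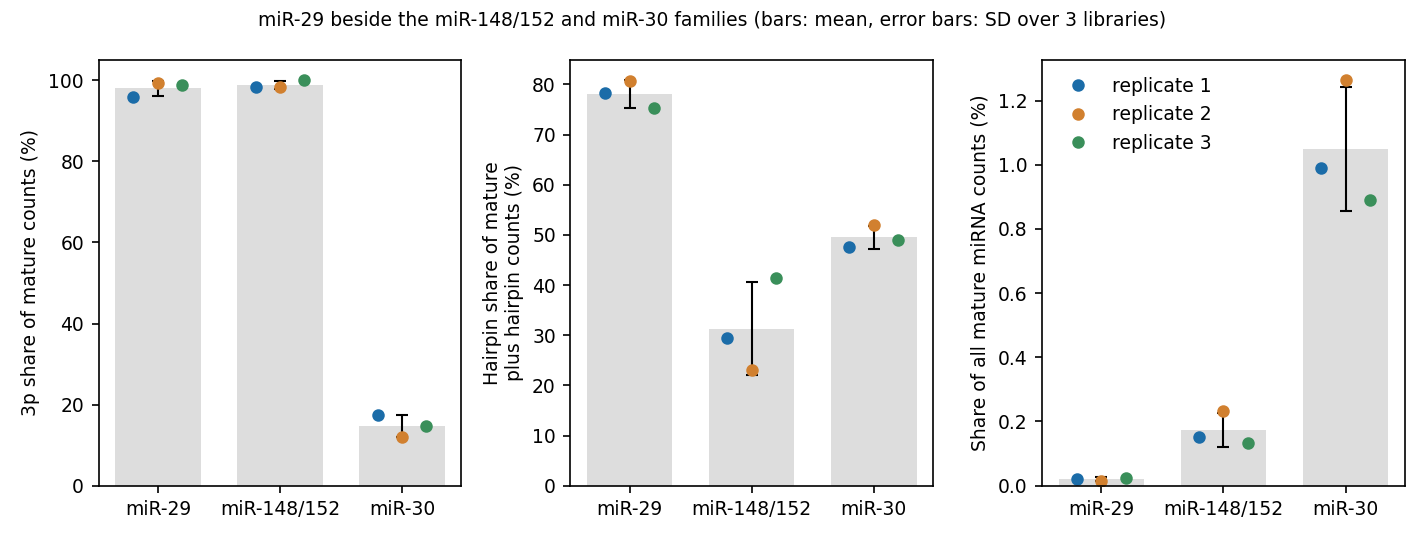
The share of mature counts on the 3p arm (left), the share of mature plus hairpin counts in hairpin entries (middle) and the share of all mature miRNA counts (right), in percent, for the miR-29, miR-148 and miR-30 families. Bars are means, error bars SDs and points the 3 libraries. miR-29 has the highest hairpin share, 78.1%, and the lowest share of mature counts, 0.0208%.

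Other miRNAs known to act on the same kinds of target spanned levels above and below miR-29. Of 6 miRNAs known to target Dnmt transcripts, miR-143-3p and miR-148a-3p were above mature miR-29a-3p and miR-29b-3p in every library, at 9477 ± 645 and 1553 ± 396 CPM (SD, n = 3 each). miR-152-3p had 62, 219 and 49 mature counts and overlapped with miR-29. miR-148b-3p had 39, 71 and 0, miR-101a-3p 2, 1 and 0, and miR-101b-3p 15, 17 and 0. A mature count of 0 is not absence, since miR-148b-3p had 19, 54 and 109 hairpin counts in the same libraries. Of 3 miRNAs known to target collagen transcripts, miR-196a-5p at 9463 ± 2066 CPM and miR-133a-3p at 470 ± 132 CPM were above all miR-29 members in every library, and miR-129-5p had 69, 15 and 0 counts. The mature level of miR-29a-3p thus lay below that of 3 of the 6 and 2 of the 3 by their means. This order holds for mature entries only. In hairpin entries miR-148a-3p at 510 and miR-152-3p at 651 CPM lay below miR-29a-3p at 938 CPM by mean. miR-143-3p, miR-196a-5p and miR-133a-3p stayed above it, at 11246, 5567 and 2236 CPM.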

How the data were processed

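Small RNA of 3 preparations of PND7 testis EVs was sequenced on the BGISEQ-500 platform. Per the paper's methods and the submitters' processing notes, the authors removed low-quality reads, mapped clean reads with Bowtie2 and cmsearch to the genome (mm10) and small RNA databases, and gave each read to a single class, with miRBase first. What the authors deposited are raw read counts per small RNA entry, and the counts and percent of clean reads for each class. Libraries held 25716952, 26002463 and 27939308 clean reads. Rows naming no small RNA (62.8% to 65.9% of clean reads) entered only the alternative scaling to clean reads. A deposited column headed as molecular identifiers equals CPM of clean reads and was not used, nor was the deposited percent.

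Mature and hairpin counts were each scaled to 1000000 counts (CPM) of their own type in each library. A count of 3 was the limit below which a level was called not detected, and Clopper-Pearson 95% intervals cover counting error only, since PCR copies were not told apart. Members and families were compared within libraries by flipping the signs of their differences in an exact two-sided permutation test, adjusted by Benjamini-Hochberg within each set of comparisons. Replicates were pools of separate mice. Over 272 mature miRNAs their chi-square statistic per degree of freedom was 96.6 to 187, against at most 1.18 in 20 simulated pairs with equal proportions, so no library was treated as a repeat deposit of another. This comparison covers counting noise only and does not measure library quality.

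The members and lists were chosen with earlier results of these data known. All miR-29 entries are named, with 3 miRNAs nearest in log2(CPM + 1) to the most abundant mature member, members of miR-30 and of miR-148 with miR-152-3p, and lists of miRNAs known to target Dnmt (6) or collagen (3) transcripts. Alternatives were other scalings (edgeR 4.0.16 TMM, DESeq2 1.42.0 size factors, clean reads), other entry types, a pseudocount of 1, a minimum of 10 counts, pooling, and each replicate left out. miR-202-5p, miR-122-5p, miR-499-5p, miR-1a-3p and miR-92b-5p were added after the data were seen. SciPy 1.17.1, numpy 2.4.6 and pandas 2.3.3 were run under Python 3.11.15, figures were drawn with matplotlib 3.10.9, and R 4.3.3 was used for edgeR and DESeq2. Positions are from GENCODE vM21 and RefSeq for GRCm38, the build also called mm10.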

Additional observations from a re-analysis of the deposited data

Results flagged for a closer look

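A signal for this family was also present in data outside the mature and hairpin entries. The Rfam family entry named mir-29 microRNA precursor, of the precursor type, had 229, 266 and 307 counts in replicates 1, 2 and 3, far above the limit of 3 counts, and there was no control library to set a background. These were 23.2% ± 2.20 (SD, n = 3) of the reads of mature, hairpin and precursor type assigned to miR-29 together. Relative to all precursor counts the entry had 1902 ± 192 CPM (SD, n = 3). It does not name a member or an arm, so it was not divided among miR-29a, miR-29b and miR-29c. Groups of 3 libraries are too small for the test of single outlying samples, which was not run.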

How the results depend on the processing

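Of 28 results, those with a test pass no threshold of 0.05, since 3 libraries allow no p below 0.25. Member levels, the family share, ranks, the 3p share of each precursor set and spreads were described without a test. Samples could not be paired between groups, because there is a single group and no second group shares its replicate numbers. Members, entry types and families were paired within libraries. TMM and DESeq2 scaling moved no level or family share by more than the spread between libraries. Entry type turned the order of members. The log2 ratio of miR-29a-3p to miR-29b-3p reversed from -0.0075 to 4.59 in hairpin entries and 2.58 with types summed, and to 0.0061 with counts pooled. The ratio of miR-29c-3p to miR-29b-3p reversed from -1.29 to 2.54 and 0.66, in the same order. With mature and hairpin entries summed, miR-29a-3p had 400.1 and miR-29c-3p 107 CPM, the family share was 0.0591%, and miR-29a-3p, miR-29b-3p and miR-29c-3p ranked 120th, 276th and 214th. The 3p share was 99.7% for miR-29a and 83.1% for miR-29b in hairpin entries, and 99.7% and 95.5% with types summed. The 83.1% carries an SD of 26.8 and rests on replicate 2, with 52.2% there against 100% and 97.2% in replicates 1 and 3. The cause of these changes was not tested. Scaling to clean reads, a larger denominator, gave 2.97 CPM for miR-29a-3p, 2.97 for miR-29b-3p and 1.26 for miR-29c-3p, and a family share of 0.000735%. Leaving out each replicate in turn gave a log2 ratio of miR-29a-3p to miR-29b-3p from -0.084 to 0.14, with 0.14 without replicate 1. The spread of hairpin miR-29b-3p ran from 1.25 to 3.09-fold and that of mature miR-29c-3p from 1.07 to 2.29-fold, the low value of each without replicate 2. The effect of leaving out replicates on the spread was added after seeing the data. The other 81 of 84 such values kept their direction or stayed within the spread or 1.5 times. Mature miR-29c-3p rests on 20 to 44 counts per library, which limits its precision.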
